A study of Drosophila melanogaster with 4 samples.

Results

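The genes described here are ATP-binding cassette (ABC) transporters of Drosophila melanogaster, measured in heads of flies fed tetraethylammonium chloride (TEA), an organic cation that blocks potassium channels. The 9 listed symbols were CG9663, CG31793, CG9664, CG3164, w, st, bw, E23 and Atet, and a gene was kept where its probe had a value on at least 3 of 4 arrays. CG9663, CG31793 and E23 met this rule, 3 of the 9, out of 1379 genes measured on at least 3 arrays. The members were chosen by gene family and by their number of values, with the TEA over control ratios of CG9663 and CG31793 already known, so the ratios of the members are given as a description without a test. Flies were unmated Oregon-R wild-type males, 3 to 4 days old when treatment began, kept at 30 per vial. The TEA group was kept for 7 days on food with 16 mg/ml TEA, and the control group on normal food over the same time. Each of 4 biological replicates compared a pool of heads from TEA flies with a pool of heads from control flies on a single 2-colour cDNA array, with TEA in Cy5 in replicates 1 and 2 and in Cy3 in replicates 3 and 4. A drug-withdrawal period named in the study's design was not analysed here.

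ABC transporters use ATP to move lipids, pigments, metabolites, hormones or foreign compounds across membranes, and fall into subfamilies named by letters. ABCG members carry a single nucleotide-binding and membrane unit and work in pairs. The white protein (w) pairs with scarlet (st) to load precursors of the brown eye pigment, and with brown (bw) to load precursors of the red eye pigment. ABCB and ABCC members include pumps that export foreign compounds, organic anions and conjugates. ABCF members have no membrane part and act with ribosomes, and ABCH members of insects include lipid transporters of the cuticle.

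The deposited values were normalised log2 ratios, with 5445 to 6252 of 27648 spots carrying a value on an array. The 2 neighbouring spots of a probe were averaged, and limma was run on the 3150 probes that held values on 3 or 4 arrays. No source used here gives the direction of the deposited ratio. Cy5 over Cy3 was assumed, and replicates 3 and 4 were turned so that a positive value means more RNA in TEA heads. This reading is likely rather than certain: the quality filter in the design text names the 2 channels as 635 over 532, the wavelengths of Cy5 and Cy3. After turning, the tested probes had array medians of -0.09, -0.08, 0.24 and 0.06 in replicates 1 to 4, and Spearman correlations across probes of 0.46 between replicates 1 and 2, 0.34 between 3 and 4 and -0.17 to 0.24 between dye orientations. The Pearson correlations were 0.335 for replicates 1 and 2, 0.171 for 3 and 4, and 0.345 for replicates 2 and 3, which have opposite dyes, so the order of the pairs depended on the measure. As heads were measured in bulk, fewer cells of a type and less RNA per cell cannot be told apart. The head markers that could be checked included 5 of 7 photoreceptor genes with a probe of their own (Arr1, inaC, inaD, rdgA and trpl), while 0 of 3 testis and accessory gland genes and 1 of 2 gut genes had values. The neuronal marker list had 1 gene with a probe of its own, and it had no value. Over all genes with a probe of their own, 1379 of 6793 (20.3%) had values on at least 3 arrays. Counts of 0 of 3 and 1 of 2 do not set the testis and gut lists apart from that share.

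CG9663, an ABCG gene on chromosome arm 2L, was higher in TEA heads on all 4 arrays. Among all tested probes, 18.4% had 1 sign on every array that held a value for them. Its log2 ratios of TEA over control were 1.50, 1.25, 0.66 and 0.38 in replicates 1 to 4. The arrays with TEA in Cy5 gave the higher values and those with TEA in Cy3 the lower, with no overlap between the orientations. The mean was 0.95 ± 0.52 (SD, n = 4), with a moderated standard error of 0.21, a ratio of 1.93 of TEA over control. Its duplicate spots differed by at most 0.13 on any array, which is less than the differences between arrays. Within each array, CG9663 lay above 98.8%, 99.3%, 84.8% and 81.8% of the tested probes in replicates 1 to 4. By its mean it ranked 22 from the highest among the 3150 probes. CG9664, the coding gene next to CG9663 on 2L in the RefSeq table and also an ABCG member, had a probe without a value on any array.

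CG31793, an ABCC gene on chromosome arm 2L, was lower in TEA heads on all 4 arrays. Its log2 ratios were -0.57, -1.22, -1.09 and -0.33 in replicates 1 to 4. The lowest values came from replicates 2 and 3, which had opposite dyes, so the orientations overlapped. The mean was -0.80 ± 0.42 (SD, n = 4), with a standard error of 0.19, a ratio of 0.574 of TEA over control. The duplicate spots differed by at most 0.078. CG31793 lay above 5.92%, 2.11%, 3.98% and 13.1% of the tested probes in replicates 1 to 4, and its mean ranked 68 from the lowest. A second probe of CG31793 had no value on any array. A further probe names CG31793 together with its neighbour on 2L, CG31792, and was not used for either gene. The ratio of CG31793 therefore rests on 1 of the 2 probes that name it alone.

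E23, an ABCG gene on 2L first described as an early gene of the ecdysone response, had values around 0. Its log2 ratios were -0.22, 0.003, 0.57 and 0.18 in replicates 1 to 4. The values were close to or below 0 with TEA in Cy5 and further above 0 with TEA in Cy3, so E23 had no common direction over the arrays. The mean was 0.13 ± 0.34 (SD, n = 4), with a standard error of 0.16. This mean is smaller than the spread between replicates, and the duplicate spots differed by up to 0.25. A second E23 probe had no value.

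**Figure D1:**
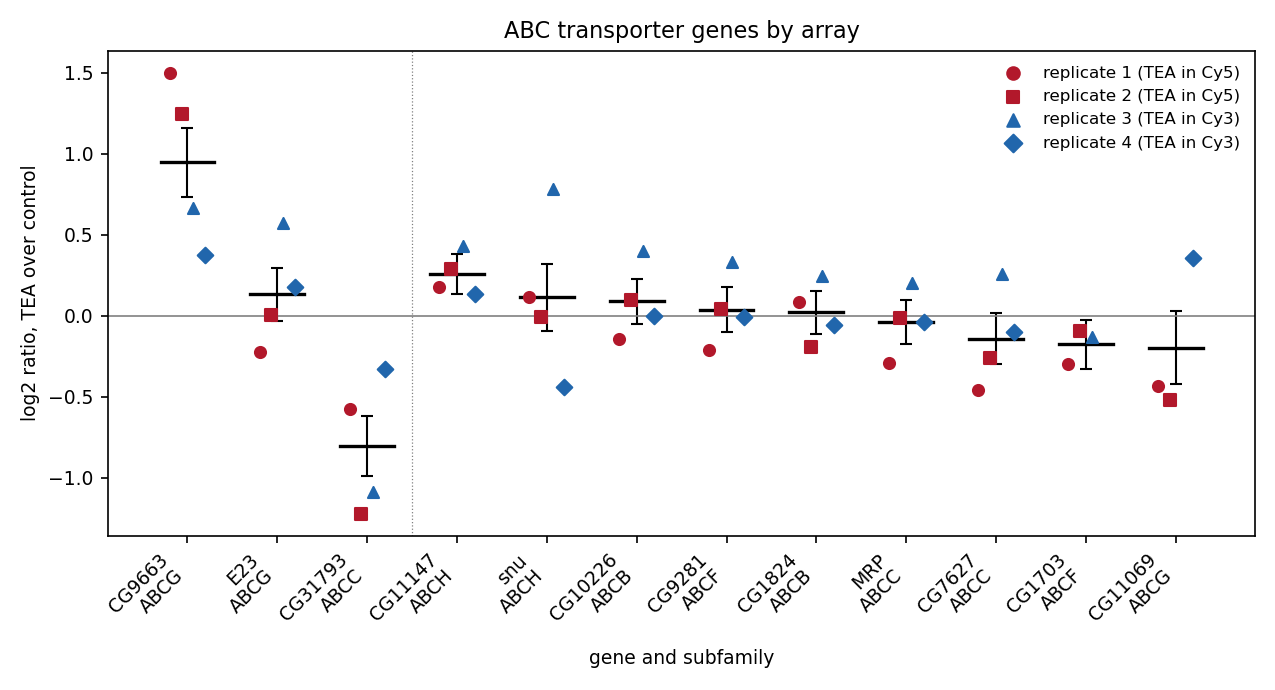
Log2 ratio of TEA over control (vertical axis) for the 12 ABC transporter genes with a value on at least 3 arrays, with the listed members left of the dotted line and other ABC genes right of it. Points are arrays, coloured by the dye of the TEA sample; black lines are means with moderated standard errors. CG9663 lies between 0.38 and 1.50 and CG31793 between -1.22 and -0.33, while the means of the other 9 genes lie between -0.20 and 0.26.

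Over the whole table, limma called 20 of 3150 probes for TEA against control at an adjusted p of 0.05 (0.635%), and 12 of 1379 genes (0.87%) when fitted on gene means, each the average of a gene's probes. For the members no call is drawn from this contrast, on which they were chosen. CG9663 and CG31793 have a single measured probe each, so their means are identical in the 2 fits. The standard errors differ, at 0.21 over probes and 0.18 over genes for CG9663, and 0.19 and 0.17 for CG31793. With 1 array left out at a time, the mean of CG9663 ran from 0.76 to 1.14 and that of CG31793 from -0.96 to -0.66. Both lay furthest from 0 without replicate 4.

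The positions directly beside each member in the deposited table were compared next. A position is a probe's place in the table; the slide's layout was not used here, and table neighbours may or may not be neighbours on the slide. The position before CG9663 holds Desat1, a fatty acid desaturase encoded on 3R. Desat1 had log2 ratios of 1.66, 1.51, 0.81 and 0.36 in replicates 1 to 4. The position after CG9663 holds SMSr, a sphingolipid synthase of the endoplasmic reticulum encoded on 3L, with 0.66, 0.48, 0.12 and 0.16. All 3 genes were positive on every array and higher with TEA in Cy5 than in Cy3, in the order Desat1, CG9663, SMSr by mean, at 1.08, 0.95 and 0.36. Desat1 minus CG9663 was 0.16, 0.26, 0.15 and -0.02 on the 4 arrays, so these neighbours differed by less than the spread of CG9663 over the arrays. The positions on either side of this trio, 1 before Desat1 and 1 after SMSr, had no values.

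CG31793 had no measured neighbour. The next tested positions lay 6 before and 7 after it, and both hold unnamed probes. The one before had log2 ratios of 0.76, -2.91 and -0.47 in replicates 1, 3 and 4 and no value in replicate 2, and the one after had -0.12, -0.53, 1.28 and -0.52. Each of these probes took both signs, while CG31793 had 1 sign. Their means were -0.87 for the one before and 0.03 for the one after, beside -0.80 for CG31793. E23 stood in a run of measured positions. The position before it, boly, had log2 ratios of 0.05, 0.17, 0.56 and 0.17, and the unnamed position after it had -0.21, 0.06, 0.62 and 0.13. On each of the 4 arrays the position after E23 differed from E23 by at most 0.06.

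Likeness of neighbouring positions was general in the table. Over 1339 pairs of tested positions directly beside each other, the Spearman correlation of their means was 0.40 and their median absolute difference was 0.12. For 811 pairs lying 50 positions apart the correlation was 0.09 and the median difference 0.20. These are descriptions across probes, which share arrays and are not independent. Among the 104 probes with a mean of at least 0.8 in size, a limit set after seeing that CG31793 stood just beyond it, tested positions directly beside them had a median of 0.30 in the probe's own direction (76 probe and neighbour pairs), against -0.01 at 10 positions away (50 pairs). The part of table position in the ratios of CG9663, CG31793 and E23 was not tested.

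**Figure D2:**
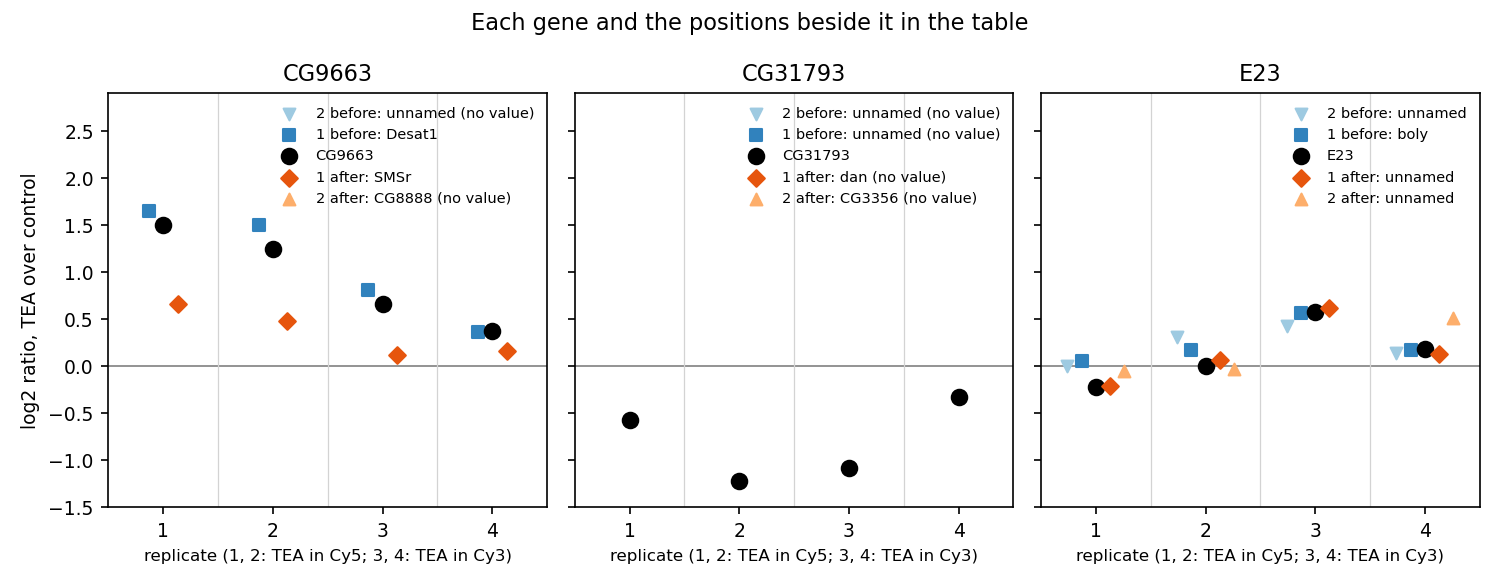
Log2 ratio of TEA over control (vertical axis) in each replicate (horizontal axis) for CG9663, CG31793 and E23 and for the positions up to 2 places before and after each in the table. CG9663 lies between Desat1 and SMSr in replicates 1 to 3 and within 0.02 of Desat1 in replicate 4; the positions beside CG31793 have no values.

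Genes with the most similar pattern were found by Euclidean distance over the 4 arrays among 992 other genes with 4 values. Desat1 was nearest to CG9663, at a distance of 0.34, against a median of 2.18 over all 992. Miox, a myo-inositol oxygenase, followed at 0.44, with log2 ratios of 1.25, 1.21, 0.59 and 0.03, and CG2233 at 0.73, with 1.76, 1.52, 0.31 and -0.14. Miox lies 2136 positions from CG9663 in the table and CG2233 lies 5467 away. Like CG9663, both were higher with TEA in Cy5 than with TEA in Cy3. For CG31793 the nearest genes were CG9578 at 0.54, Rlb1 at 0.58 and CG9471 at 0.61, against a median of 1.96. CG9578 had log2 ratios of -0.45, -0.73, -0.97 and -0.19 in replicates 1 to 4, and Rlb1 and CG9471 had means of -0.67 and -0.64. The nearest of these 3 in the table, CG9471, lies 216 positions from CG31793. Distances were chosen as the smallest of many and carry no test.

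The remaining 6 listed members could not be described by a ratio. CG9664, CG3164 and bw had 1 probe each and st and Atet had 2 each, 7 probes in all, and none of these held a value on any array. For w, the core partner of both eye pigment transporters, no probe names the gene in the annotation used here. The pigment transporters w, st and bw were therefore not analysed here beyond this, and nor was Atet, which in Drosophila loads ecdysone into secretory vesicles. The authors left out spots that failed filters on intensity and quality, but what emptied a given position was not tested. An empty position is therefore not read here as a measure of the transcript's level. No ABC probe naming a single gene had values on only 1 or 2 arrays. Such probes were rare in the whole table, where 3214 probes had values on at least 2 arrays and 3150 on at least 3. Just inside the limit of 3 arrays stood CG11069 and CG1703 with 3 values each.

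A list of 56 identifiers covering all ABC subfamilies was used to set the members beside the rest of the family. Of these, 55 matched a single RefSeq gene, giving 54 genes, of which 32 had a probe of their own and 12 had a value on at least 3 arrays, 37.5% of the 32. Over all annotated genes this share was 20.3%, 1379 of 6793. The 12 comprised the 3 members and 9 others. The median log2 ratio was 0.03 over the 12 genes, with 7 above and 5 below 0, beside 0.02 over all 1379 genes, with 765 above and 614 below. Of the 9 other ABC genes, 0 passed the limma threshold in the fit over probes (0.635% of all probes passed) and 0 in the fit over genes (0.87% of all genes passed). In either fit 0 of the 9 had an unadjusted limma p under 0.05, beside 283 of all 3150 probes and 123 of all 1379 genes. With 9 genes, counts of 0 do not set them apart from all features.

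The other measured ABCC genes, MRP and CG7627, lay closer to 0. MRP, the fly counterpart of human multidrug resistance protein pumps, had log2 ratios of -0.29, -0.02, 0.20 and -0.04 in replicates 1 to 4, and a mean of -0.04 ± 0.20 (SD, n = 4). CG7627 had -0.46, -0.26, 0.26 and -0.10 and a mean of -0.14 ± 0.30 (SD, n = 4). CG31793 was below both of them on every array. The third measured ABCG gene, CG11069, had -0.43 and -0.52 with TEA in Cy5 and 0.36 on the remaining array, and no value in replicate 3. It was below CG9663 on all 3 arrays it shares with it, but in replicate 4 only at 0.36 against 0.38. On that array the spots of CG11069, 0.39 and 0.33, lay between those of CG9663, 0.44 and 0.31.

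The other subfamilies stayed within 0.26 of 0 by their means. The ABCB genes CG10226, a relative of the Mdr pumps, and CG1824 had means of 0.09 ± 0.23 and 0.02 ± 0.19 (SD, n = 4 each). The ABCF genes CG9281 and CG1703 had means of 0.04 ± 0.22 (SD, n = 4) and -0.18 ± 0.11 (SD, n = 3). CG11147, an ABCH gene, was positive on all 4 arrays, at 0.18, 0.29, 0.43 and 0.14, with a mean of 0.26 ± 0.13 (SD, n = 4). The other ABCH gene, snu, which is needed for the water barrier of the cuticle, had 0.12, -0.01, 0.78 and -0.44 and a mean of 0.11 ± 0.51 (SD, n = 4). CG1703 was negative on each of the 3 arrays that held a value for it. Mdr49, Mdr50 and Mdr65, pumps of the P-glycoprotein type, had 2 probes each and no value.

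The dye orientation was then tested as a contrast of its own, since in 4 balanced arrays it is orthogonal to the mean that was known when the members were chosen. Over probes, limma called 0 of 3150 (0%) at an adjusted p of 0.05, with 506 at an unadjusted p under 0.05. CG9663 was higher with TEA in Cy5, at a mean of 1.37, than with TEA in Cy3, at 0.52, a difference of 0.85 ± 0.22 (SE, n = 4; limma adjusted p = 0.270). CG31793 had -0.90 and -0.71, a difference of -0.19 ± 0.37 (SE, n = 4; limma adjusted p = 0.779). E23 had -0.11 and 0.38, a difference of -0.49 ± 0.24 (SE, n = 4; limma adjusted p = 0.349). CG9663 was the only positive difference among the 12 ABC genes; the other 11 were negative, as were 72.4% of all tested probes, whose median difference was -0.25.

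In the fit over gene means the dye difference of CG9663 passed (0.85 ± 0.26, SE, n = 4; limma adjusted p = 0.015), and that of CG31793 (adjusted p = 0.670) and E23 (0.220) did not. In that fit 176 of 1379 genes passed (12.8%), 23 of them higher with TEA in Cy5 and 153 lower. The fit gave every gene with 4 values the same standard error, because the moderation found no variation in spread between genes, so the call depends on that estimate. Without replicates 1, 2, 3 and 4 in turn the difference of CG9663 was 0.73, 0.98, 1.00 and 0.71. The call was lost without replicate 1 and without replicate 2. Each of these fits leaves a lone array in 1 orientation, which is assumed to vary like the others, so no call is drawn from them. Without replicate 4 the gene-level difference of E23 was -0.68.

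**Figure D3:**
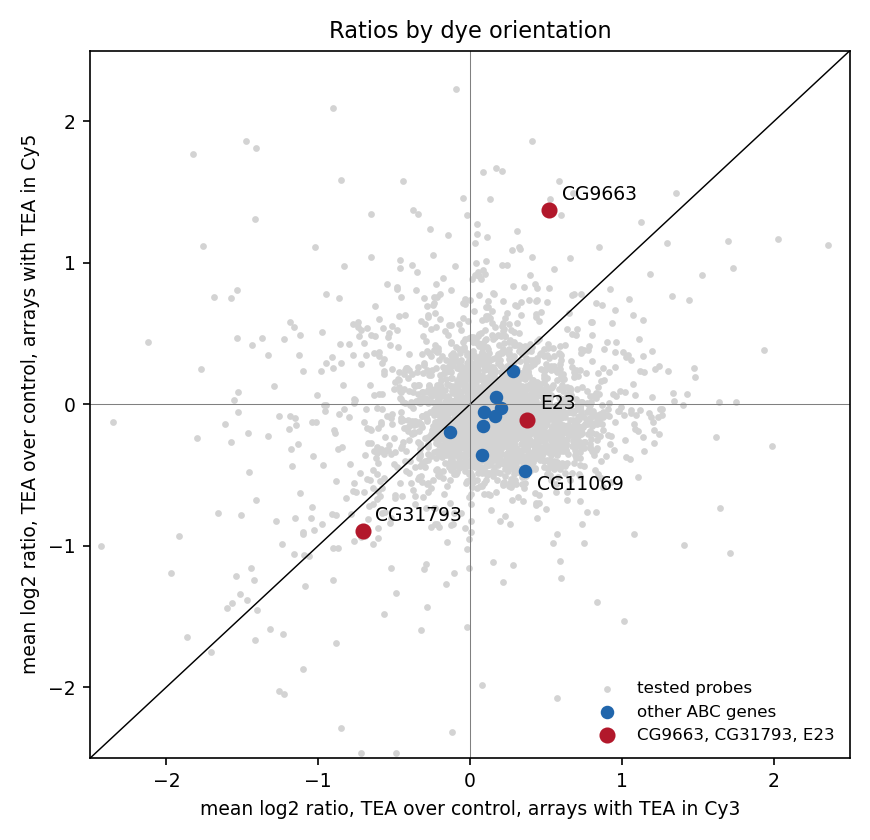
Mean log2 ratio of TEA over control on the arrays with TEA in Cy5 (vertical axis) against the arrays with TEA in Cy3 (horizontal axis), for 3142 of 3150 tested probes in grey (the other 8 lie outside the axes) and the 12 ABC genes in colour. The line marks equal values; CG9663, at 1.37 and 0.52, lies above it and the other 11 ABC genes lie below it.

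If the swapped arrays were not turned, the description of the members would change. CG9663 would have a mean of 0.43 ± 0.42 (SE, n = 4), CG31793 -0.09 ± 0.39 and E23 -0.24 ± 0.13. In that reading the mean of CG9663 is about as large as its standard error, that of CG31793 is smaller than its standard error, and E23 is negative. If instead Cy3 was the numerator throughout, the sizes would stay and all signs would turn.

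**Figure D4:**
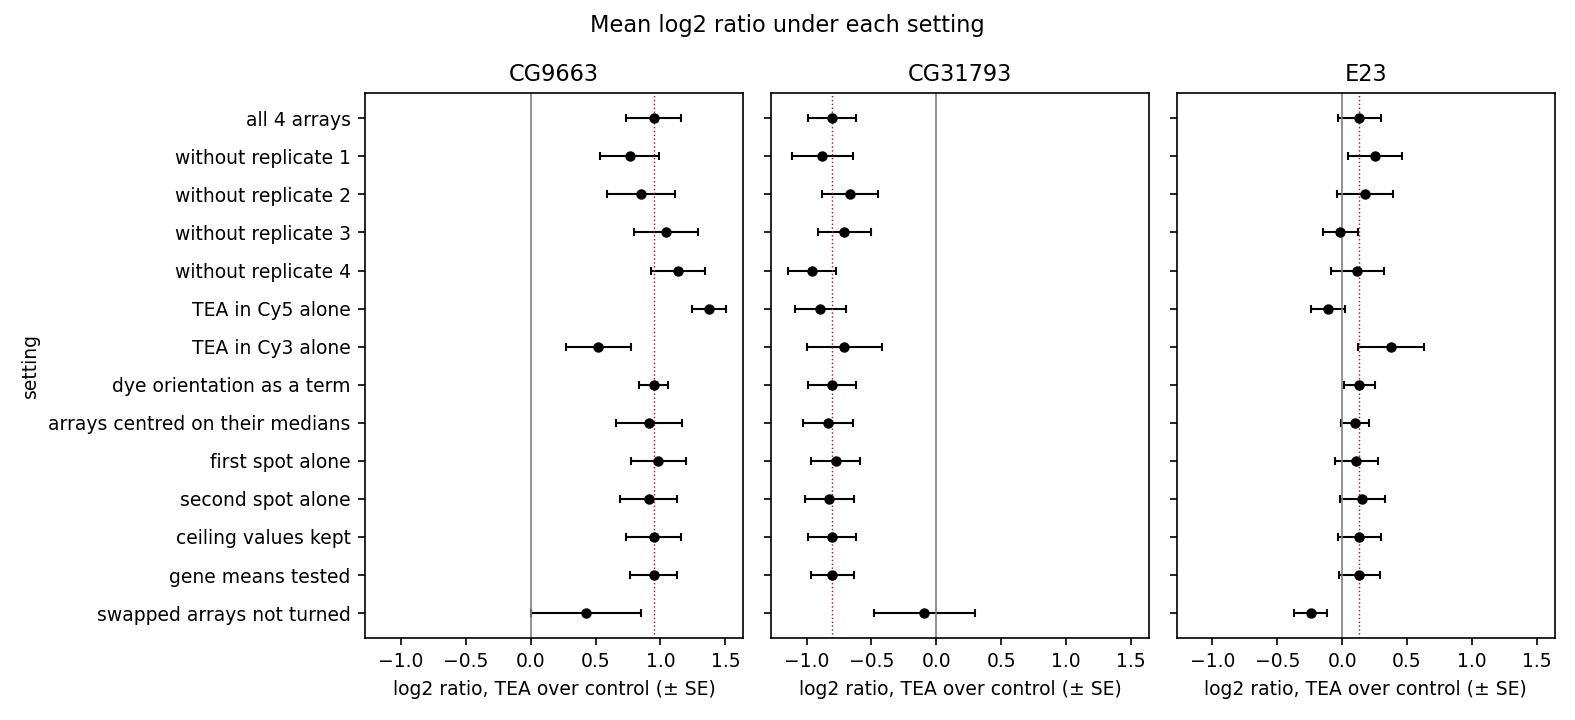
Mean log2 ratio of TEA over control (horizontal axis, with moderated standard errors) of CG9663, CG31793 and E23 for all 4 arrays and under each alternative setting (vertical axis). CG9663 stays between 0.43 and 1.37 and CG31793 between -0.96 and -0.09, with the value nearest 0 for both where the swapped arrays were not turned, while E23 crosses 0.

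Genes of the pathways around these transporters were taken from lists. Of 24 eye pigment genes, 14 had a probe of their own and 4 were measured, and 0 passed the gene-level threshold in either direction, with 2 above and 2 below 0. Pu, the first enzyme of pteridine synthesis, had log2 ratios of 0.002, -0.38, -0.41 and -0.26, and a mean of -0.26 ± 0.14 (SE, n = 4). The pteridine synthesis gene pr had a mean of -0.02 ± 0.14 (SE, n = 4), and p, which encodes a subunit of a complex for pigment granule formation, had 0.14 ± 0.13 (SE, n = 4). Drat, which was on the list but encodes a protein with an alcohol dehydrogenase domain and not a known pigment enzyme, had 0.17 ± 0.16 (SE, n = 4). Of 22 ecdysone genes, 10 had a probe of their own and 2 were measured, and 0 passed. Over all 1379 genes 0.87% passed, so counts of 0 in lists this small do not set the eye pigment or ecdysone genes apart. The ecdysone receptor EcR had -0.43, -0.10, 0.36 and -0.06, and its coactivator tai had -0.24, 0.15, 0.20 and 0.11. Both were lowest in replicate 1 and highest in replicate 3, as was E23, and the medians over all 1379 genes had the same lowest and highest array, at -0.10, -0.09, 0.27 and 0.06 in replicates 1 to 4.

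Markers of head cell types were measured beside the transporters. Of 7 fat body markers, 6 had a probe of their own and 3 were measured, at gene means of 0.78 ± 0.15 for apolpp, 0.45 ± 0.14 for FASN1 and -0.001 ± 0.14 for Lsp2 (SE, n = 4 each), of which apolpp passed the gene-level threshold. By array, FASN1 had 0.70, 0.59, 0.19 and 0.30, highest with TEA in Cy5 as for CG9663, and apolpp had 0.68, 0.67, 1.18 and 0.61. Of 7 glial markers, 3 were measured, with a median of 0.08, 2 above and 1 below 0. The highest was Gs2, at 0.46 ± 0.14 (SE, n = 4), close to FASN1. The 5 photoreceptor genes had a median of 0.07, with 3 above and 2 below 0. Their highest was Arr1, at 0.40 ± 0.15 (SE, n = 4). None of these 8 passed, beside 0.87% of all genes. The part of cell composition in the ratios of the ABC genes was not tested. cDNA probes can also bind transcripts of close relatives, and this was not tested either.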

How the data were processed

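Head RNA of TEA and control flies was compared on 4 two-channel cDNA arrays, 1 per biological replicate. The authors deposited log2 ratios, which they normalised by ratio in Acuity 4.0 after quantification in GenePix Pro 6.0, where dim spots (raw intensity below 100 and below 2 times the average background) were left out, as the labels' design text records. Spots that failed their filters on saturation, flags, pixel regression and signal-to-noise are empty in the deposited table. Scanner values were not used here, so signal over background is unknown, and precision is limited by having 4 arrays. The log base follows from the ceiling of 16.61, the log2 of a ratio of 100000; 8 such values were set to missing.

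The 2 neighbouring spots of a probe were averaged. Of 7558 probes with 1 symbol, 7447 took their name from the RefSeq table of the Release 6 assembly; no coordinates are given, since the labels name no genome build. Probes holding 3 or 4 values were fitted with limma 3.58.1 in R 4.3.3 (lmFit, eBayes, two-sided, Benjamini-Hochberg over all probes, threshold 0.05), for the mean and for TEA in Cy5 minus TEA in Cy3. On simulated data over 3150 probes the mean fit recovered 89.3% of changes of 1 on the log2 scale, with 7 false calls. The dye contrast recovered 5.4%, with 6 false calls. The simulated noise was independent between arrays, while the real ratios differed between dye orientations. These shares need not hold for the real arrays, where recovery is unknown. Replicates are pools from separate sets of vials. The members and gene lists were chosen with earlier results of these data known. The genes named were the listed members, other measured ABC genes, adjoining positions, the 3 genes nearest in pattern to CG9663 and to CG31793, and measured genes of the lists. Fits of gene means without each array were added after the data were seen.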

Additional observations from a re-analysis of the deposited data

Results flagged for a closer look

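The log2 ratio of CG11069, an ABCG gene, was below 0 on both arrays with TEA in Cy5 and above 0 on the single array with TEA in Cy3 that held a value. The difference, TEA in Cy5 minus TEA in Cy3, was -0.83 ± 0.26 (SE, n = 3; limma adjusted p = 0.294 over probes and 0.060 over genes). Replicate 3 had no value, so TEA in Cy3 is a single array here, which the fit assumes to vary like the arrays with TEA in Cy5 and like other probes. Over all tested probes the median difference was -0.25. The mean of CG11069 over its 3 arrays, -0.20, was -0.06 with dye orientation as a term, and -0.47 to -0.04 without each array in turn.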

How the results depend on the processing

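The log2 ratios of CG9663 and CG31793 ran from 0.43 to 1.37 and from -0.96 to -0.09 under 13 alternatives. Each gene had 1 sign on every array and on both spots, so leaving out arrays or spots could not change it. For most of these settings the kept sign is therefore no test of the ratio. E23 changed sign under 3 of 13, and its values without each array ran from -0.01 to 0.25. Of 154 alternative values for the 12 ABC genes, 22 had the other sign and 4 moved by more than the spread between arrays. The median over the 3 members, 0.13 with all arrays, is the value of E23; it ran from -0.11 to 0.38 over 12 alternatives and changed sign under 3. The count of 20 probes called by limma was 0 to 4 without each array (0 without replicate 2 or replicate 4, where 178 and 331 had an unadjusted p under 0.05, and 1 without replicate 3). It was 0 with centred arrays (309), with swapped arrays not turned (353), with the first spot (245) or second spot (249) alone and with dye as a term (427), and 12 with gene means. The count for the dye contrast, 0, was 0 to 1 without each array and 176 with gene means. Over gene means, the TEA count of 12 was 33 without replicate 1, 15 without 2, 36 without 3 and 2 without 4, and the dye count of 176 was 0 (98), 22, 152 and 311 in the same order. The cause was not tested. Each array ratio is already the paired difference of a TEA pool and its own control pool, so no further replicate block was fitted.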
